A study of Mus musculus with 4 samples.

Results

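The immunoglobulin heavy chain V segments were examined in RNA of Ter119+ cells from mouse bone marrow, in 2 libraries of Med16 fl/fl mice and 2 of Med16 KO mice. The members were all genes whose symbol is Ighv followed by a number, which gave 183 of the 56691 genes in the count tables. Of these, 94 had at least 1 count in some library, 43 passed the filter on low counts, and 89 were at 0 in all 4 libraries. Every library carried the time label of 3 weeks and the developmental stage label of erythroid stage, and both genotypes are described only by their Med16 alleles, floxed or knocked out. The labels name no Cre driver, no sex and no age beyond that time, and they do not explain the letters DK that stand in the titles of the KO libraries. Nor is it stated that each library is from an animal of its own, so the p values reflect only how far these libraries vary, possibly for technical reasons.

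Heavy chain genes are assembled in developing B cells, where a D segment is joined to a J segment and a V segment is then joined to both. Each B cell thus transcribes mainly the V segment it has rearranged, and its daughters, including antibody-secreting plasma cells, keep that choice. V segments are grouped into families by sequence, with V1 (the J558 family) the largest in the mouse, and rearranged V transcripts are typical of B lineage cells, not of erythroid cells. In bulk RNA such as this a change in the number of B lineage cells and a change in V transcripts per cell cannot be told apart.

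The libraries held 6749196 to 7216333 counts assigned to genes. Erythroid markers dominated: the 8 genes of that list summed to 37455 to 52643 CPM (counts scaled to the effective library size), with Slc4a1, the band 3 anion exchanger, at 13253 ± 61.0 CPM in fl/fl and 10006 ± 83.9 in KO (SD, n = 2 libraries per genotype, as for all values below). The erythroid markers Tfrc, the transferrin receptor, and Hbb-bt, a beta globin, were at 2662 ± 60.0 and 20439 ± 4261 CPM in fl/fl and at 1311 ± 22.5 and 16963 ± 5886 in KO. Of the 8, 1 was higher and 6 were lower in KO, where 8.5% and 9.89% of all genes tested were called. Their median log2 fold change was -0.37. Hbb-bt differed between libraries of a genotype by more than its means differed between genotypes. It did not pass the test (log2 fold change -0.27, adjusted p = 0.261), was called lower without the filter on low counts (-0.30, adjusted p = 7.1e-48) and without either fl/fl library or KO library 2, and was at 0.035 without KO library 1. Med16 had 164 and 127 counts in fl/fl and 16 and 30 in KO (log2 fold change -2.64, SE 0.34, adjusted p = 4.6e-05 by edgeR's quasi-likelihood F test with Benjamini-Hochberg adjustment), as the labels say.

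All 183 segments matched GENCODE release M21 by identifier, where they lie on chromosome 12, minus strand, and 113 are annotated as V genes and 70 as V pseudogenes. That release uses build GRCm38 and the counts were made on GRCm39, so no coordinates are given. The results below turn on 6 segments. For each, the 240 bases at the 3′ end of its coding sequence are printed 5′ to 3′ from the GENCODE transcripts, with capitals from the codon of the second conserved cysteine to the end of the segment, the germline start of the third complementarity-determining region (CDR3). The first 3 were among the most counted in KO and rare in fl/fl:
Ighv8-8: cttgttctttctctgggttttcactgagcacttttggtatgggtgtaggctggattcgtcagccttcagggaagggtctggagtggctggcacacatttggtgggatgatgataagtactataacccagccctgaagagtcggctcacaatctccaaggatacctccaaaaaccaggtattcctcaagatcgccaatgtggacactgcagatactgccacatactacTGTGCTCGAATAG
Ighv1-75: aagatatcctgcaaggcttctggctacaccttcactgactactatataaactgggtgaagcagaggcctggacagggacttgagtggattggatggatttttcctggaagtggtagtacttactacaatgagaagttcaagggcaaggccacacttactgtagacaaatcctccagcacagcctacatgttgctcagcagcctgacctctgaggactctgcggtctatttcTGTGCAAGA
Ighv1-4: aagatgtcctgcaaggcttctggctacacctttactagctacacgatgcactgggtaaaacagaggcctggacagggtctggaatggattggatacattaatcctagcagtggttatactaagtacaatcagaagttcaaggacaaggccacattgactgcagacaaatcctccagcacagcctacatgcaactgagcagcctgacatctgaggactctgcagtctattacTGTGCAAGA

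Ighv1-26 was abundant in every library, and Ighv5-2 and Ighv11-2 had their highest counts in the fl/fl libraries:
Ighv1-26: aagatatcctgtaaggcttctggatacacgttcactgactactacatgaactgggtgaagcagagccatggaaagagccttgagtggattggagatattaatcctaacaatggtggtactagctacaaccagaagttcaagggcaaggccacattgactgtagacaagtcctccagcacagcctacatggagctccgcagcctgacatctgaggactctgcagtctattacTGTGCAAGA
Ighv5-2: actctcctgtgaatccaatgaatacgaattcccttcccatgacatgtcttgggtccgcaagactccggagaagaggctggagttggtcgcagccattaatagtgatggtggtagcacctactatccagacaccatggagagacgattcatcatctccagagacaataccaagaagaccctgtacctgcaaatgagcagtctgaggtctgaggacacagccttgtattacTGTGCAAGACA
Ighv11-2: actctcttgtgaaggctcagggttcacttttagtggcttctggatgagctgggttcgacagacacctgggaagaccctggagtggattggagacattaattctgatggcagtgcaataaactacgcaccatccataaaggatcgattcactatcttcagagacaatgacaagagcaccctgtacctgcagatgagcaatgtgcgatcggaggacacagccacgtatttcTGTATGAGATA

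Over their coding sequences Ighv1-4 and Ighv1-75 were 84.3% identical, Ighv1-26 and Ighv1-75 88.0%, and Ighv8-8 and Ighv1-75 54.4%. Ighv5-2 and Ighv11-2 were 70.5% identical. The 9 bases TGTGCAAGA with which the capitals of the V1 segments begin were the commonest such start, in 62 of the 106 V genes whose frame and cysteine codon could be read (58.5%). They also stand in Ighv5-2, whereas Ighv8-8 and Ighv11-2 carry others.

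Heavy chain V counts were about 4 times as abundant in the KO libraries. They numbered 816 and 814 in fl/fl and 3290 and 3175 in KO. These were 0.0113% and 0.0115% of assigned counts in fl/fl (exact Clopper-Pearson 95% intervals 0.0105 to 0.0121% and 0.0108 to 0.0124%) and 0.0473% and 0.0470% in KO (0.0457 to 0.0490% and 0.0454 to 0.0487%). Summed over segments the level was 116 CPM in fl/fl and 463 in KO, and the ratio of counts per effective library size was 3.98 (exact 95% interval 3.77 to 4.20, counting error only). The libraries of a genotype nearly coincided and the genotypes did not overlap. No test of the sum was made. With 2 libraries against 2 the smallest p of an exact two-sided permutation test is 0.33.

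The difference was uneven among segments. By mean CPM, 52 segments were higher and 42 lower in KO, adding up to 394 CPM of rises and -46.9 CPM of falls. The 5 largest differences upward, those of Ighv8-8, Ighv1-75, Ighv1-80, Ighv1-4 and Ighv1-26, made up 57.4% of the rises. Ighv5-2 alone made up 28.3% of the falls.

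Among the 43 segments tested, 24 rose in KO, where 8.5% of all genes tested were called higher, and 4 fell, where 9.89% were called lower. Thus 28 segments were called, against a background of 18.4% of all 13052 genes tested. The median log2 fold change was 3.10 over the tested segments and 0.02 over all genes tested. These counts are a description only, since many segments passed the filter solely through the KO libraries, where they were high. With a DESeq2 test, an adjusted p was given for 8 of the 43 and 7 were called, all higher. Without its independent filtering, which was added once the values were known, 23 were called higher and 1 lower. Of the 13052 genes fitted, DESeq2 called 1808 in either direction, and 1738 without independent filtering.

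**Figure D1:**
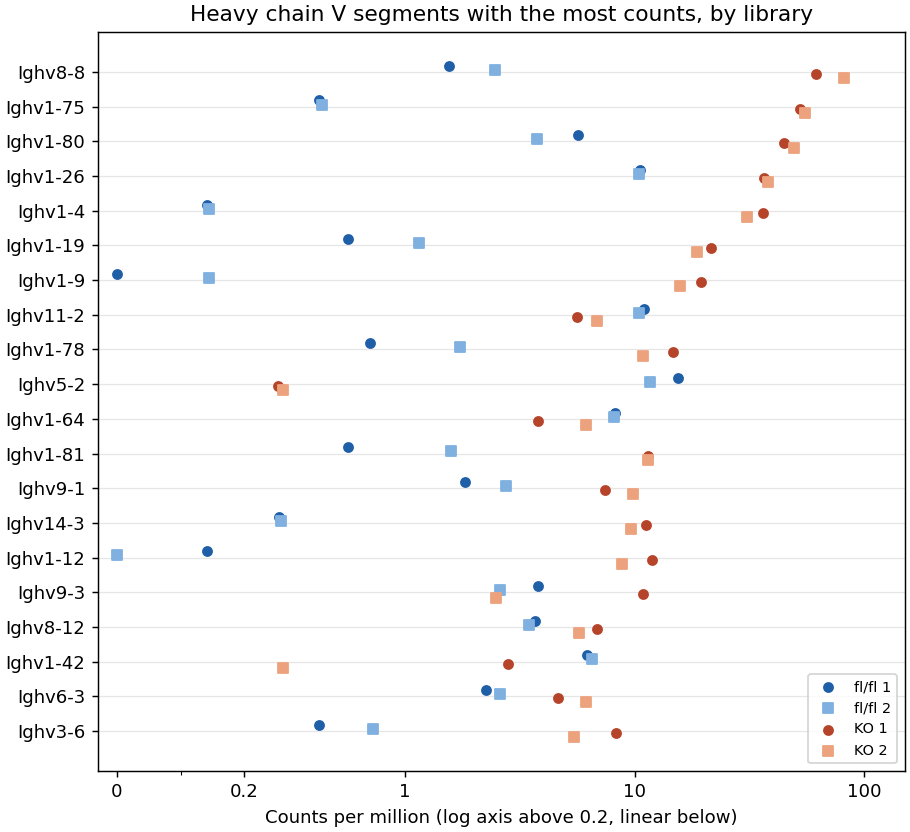
The 20 segments with the most counts over the 4 libraries, 1 row each, with the level of each library in CPM on an axis that is logarithmic above 0.2 and linear below. Ighv8-8, Ighv1-75 and Ighv1-4 lie far to the right in both KO libraries, Ighv5-2 in both fl/fl libraries, and Ighv8-12 differs little.

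Ighv8-8, of the V8 family, had the most counts of any segment. It had 11 and 17 counts in fl/fl and 440 and 558 in KO, or 2.01 ± 0.640 against 71.7 ± 14.3 CPM (log2 fold change 5.15, SE 0.26, adjusted p = 1.8e-09). Ighv1-75 had 3 and 3 counts in fl/fl and 376 and 376 in KO (6.92, SE 0.31, adjusted p = 5.9e-10). Both went from a minor place to the top of the KO libraries, where Ighv8-8 took 13.4% and 17.6% and Ighv1-75 11.4% and 11.8% of V counts. Ighv1-4 had 1 count in each fl/fl library and 259 and 211 in the KO libraries (7.71, SE 0.43, adjusted p = 7.7e-09), a count ratio of 236 with an exact interval from 64.9 to 1952. Ighv1-9 went from 0 and 1 count to 139 and 107 (7.62, SE 0.62, adjusted p = 4.5e-07), and Ighv1-12 from 1 and 0 to 85 and 60 (6.86, SE 0.76, adjusted p = 1.1e-05). For these V1 segments the fl/fl counts lie at or under the limit that a count of 0 allows, 3 counts or 0.420 to 0.440 CPM per library.

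Other segments rose from a level that was already measurable in fl/fl. Ighv1-80 had 40 and 26 counts in fl/fl and 319 and 339 in KO (log2 fold change 3.32, SE 0.23, adjusted p = 8.4e-08). Ighv1-26 had 75 and 72 against 262 and 259 (1.83, SE 0.20, adjusted p = 8.6e-06). Its share of V counts was 9.19% and 8.85% in fl/fl and 7.96% and 8.16% in KO, so its rise was close to that of the sum. Ighv1-19 rose by a log2 fold change of 4.52 (4 and 8 against 154 and 127 counts), Ighv1-78 by 3.38 (5 and 12 against 105 and 74), Ighv1-81 by 3.40 (4 and 11 against 82 and 78) and Ighv9-1 by 1.90 (13 and 19 against 53 and 67).

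The rest of the 24 were near the floor in fl/fl. Ighv14-3 had 2 and 2 counts in fl/fl and 80 and 66 in KO, and Ighv13-2 had 1 and 1 against 46 and 38. Ighv3-6 had 3 and 5 against 59 and 37, and Ighv2-9 had 6 and 4 against 46 and 42. Each of these 4 is the segment with the most counts of its family, and their log2 fold changes were 5.11, 5.23, 3.54 and 3.11. Ighv14-1 was at 0 in both fl/fl libraries and at 23 and 26 counts in KO, at least 8.21-fold higher than the limit of 3 counts per library. Ighv1-61, also at 0 in fl/fl, had 15 and 28 counts and was at least 7.24-fold higher. Ighv1-58, Ighv1-5, Ighv1-50, Ighv1-22, Ighv14-2, Ighv1-54 and Ighv1-7 had 0 to 3 counts in each fl/fl library and 10 to 51 in each KO library. The calls of Ighv1-54, Ighv1-61 and Ighv1-7 ended without either fl/fl library, that of Ighv1-7 also without KO library 2 and with DESeq2 without independent filtering, and that of Ighv9-1 without fl/fl library 1. Ighv1-54 no longer passed the filter without KO library 2.

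Ighv5-2 fell. It is the V gene that lies nearest the D segments and is known for its heavy use by precursor B cells. With 109 and 81 counts it was the most counted segment of both fl/fl libraries, at 13.4% and 9.95% of V counts, and it had 2 counts in each KO library (13.5 ± 2.60 against 0.287 ± 0.00943 CPM, log2 fold change -5.48, SE 0.53, adjusted p = 2.6e-06). The count ratio was 0.0211, with an exact interval from 0.00569 to 0.0550. In the same fl/fl libraries its neighbour Ighv2-2, the next V gene along the locus, had 17 and 24 counts, and it had 20 and 23 in KO (0.07, SE 0.57, adjusted p = 0.954). The counts of Ighv2-2 overlapped between genotypes, and those of Ighv5-2 did not. As a share of V counts, however, Ighv2-2 was lower in KO too, at 2.08% and 2.95% in fl/fl and 0.608% and 0.724% in KO.

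The other 3 that fell rested on fewer counts. Ighv1-42 had 44 and 45 counts in fl/fl and 20 and 2 in KO (-2.01, SE 0.67, adjusted p = 0.049), so the KO libraries differed widely from each other. Ighv6-6 had 21 and 31 against 7 and 3 (-2.35, adjusted p = 0.038), and Ighv2-9-1 had 17 and 14 against 0 and 2 (-3.79, adjusted p = 0.028). All 3 calls ended without either fl/fl library, all 3 ended too with DESeq2 without independent filtering, and that of Ighv1-42 also with library size as the only scaling (adjusted p = 0.054). Segments called lower numbered 1 when either fl/fl library was left out, 6 in the absence of KO library 1 and 12 in that of KO library 2, against 4 with all libraries.

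The remaining 15 tested segments did not pass the test. Among them was Ighv11-2, known for its use by B-1 cells, with 78 and 72 counts in fl/fl and 40 and 47 in KO (-0.78, SE 0.32, adjusted p = 0.114). Its count was lower in both KO libraries than in either fl/fl library, and without KO library 2 it was called (-0.95, adjusted p = 0.022). Ighv1-64 had 58 and 56 against 27 and 42 counts (adjusted p = 0.232) and was also called without KO library 2. Ighv8-12 had 26 and 24 against 49 and 39 (adjusted p = 0.223), and Ighv6-3 had 16 and 18 against 33 and 42 (adjusted p = 0.138, and 0.033 without KO library 1). Ighv9-3, at 27 and 18 in fl/fl, stood at 78 in KO library 1 and 17 in KO library 2, and it was called without KO library 2. Ighv1-64, Ighv8-12, Ighv9-3 and, above, Ighv2-2 were chosen after their values were seen. Ighv7-3, at 15 and 15 in fl/fl, had 0 and 4 in KO (-2.82, SE 1.06, adjusted p = 0.079) and was called without KO library 2 (adjusted p = 0.0041). Only 5 segments, Ighv1-26, Ighv1-80, Ighv11-2, Ighv1-64 and Ighv8-12, had at least 20 counts in all 4 libraries.

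The 51 segments with a count that were not tested held 6.19% of all V counts and at most 30 counts each. Among them Ighv2-3 had 10 and 14 counts and Ighv8-2 11 and 8 in fl/fl, with 0 in both KO libraries. Ighv5-9 had 12 and 9 and Ighv4-1 8 and 8 in KO, with 0 in both fl/fl libraries. These were chosen after their values were seen, except Ighv4-1, the top segment of its family. Ighv10-3 and Ighv12-3, the top segments of V10 and V12, had 9 and 13 against 2 and 2 counts and 1 and 0 against 0 and 6.

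Use of the V families differed between genotypes. V1 took 44.7% and 47.7% of V counts in fl/fl and 67.5% and 64.8% in KO. V5 took 17.2% and 12.3% in fl/fl and 0.578% and 1.04% in KO. V8 took 6.99% and 6.88% in fl/fl and 14.9% and 19.1% in KO, and V11 took 9.56% and 8.85% against 1.22% and 1.48%. For each of these 4 families the exact 95% intervals of the fl/fl libraries lay apart from those of the KO libraries, and the difference of the genotype means exceeded the SD between libraries. The shares were not tested.

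**Figure D2:**
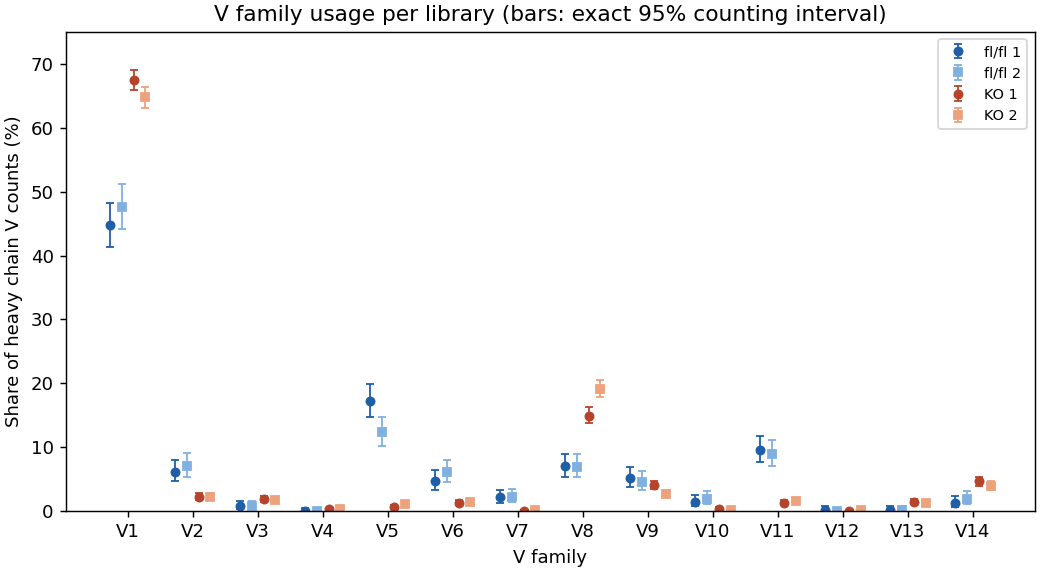
Share of heavy chain V counts (%) taken by each of the 14 families with a count, 1 point per library with its exact 95% counting interval. V1 and V8 stand higher in KO, and V2, V5, V6 and V11 higher in fl/fl.

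As levels, most families were higher in KO, by very different ratios. V1 had a count ratio of 5.70 (exact interval 5.27 to 6.17), V8 of 9.75 (8.02 to 11.9), V14 of 10.99 (7.29 to 17.3) and V3 of 9.19 (5.06 to 18.3). V9 had a ratio of 2.73, with 42 and 37 counts against 131 and 84. V2 was higher by a ratio of 1.34 (1.04 to 1.74), and the interval of V6, at 0.980 (0.718 to 1.34), included 1. Their shares of V counts, 6.56% and 5.34% in fl/fl, were 2.21% and 1.32% in KO. V5, V7, V10 and V11 were lower in KO, with ratios of 0.217 (0.158 to 0.294), 0.115 (0.0296 to 0.321), 0.463 (0.213 to 0.950) and 0.582 (0.441 to 0.763). The families V15 and V16 had no count in any library. Of the 92 segments of V1, 50 had a count and 25 were tested, with 16 higher and 1 lower.

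Single segments carried some of these family values. V8 was 10.1 percentage points higher in KO, where Ighv8-8 made up most of V8. Leaving out the most counted segment of each library took out Ighv5-2 in fl/fl and Ighv8-8 in KO. V8 then stood at 7.85% in fl/fl, where Ighv8-8 stayed in, and at 1.83% in KO (-6.02 points). That value thus sets V8 with Ighv8-8 against V8 without it. V5 was 13.9 points lower (-13.9), and -2.52 with the same segments left out. The difference for V1 was 19.96 points, and 26.003 with them left out. Neither is a V1 segment, so for V1 only the totals changed. All 4 segments of V14 were tested and 3 of them rose.

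V counts were concentrated on fewer segments in KO. In fl/fl 70 segments had a count in each library, and in KO 60 and 65 did, although the KO libraries held about 4 times the V counts. Fewer detected genes were not particular to V segments: over all genes, 18947 and 19016 had a count in fl/fl and 16892 and 16479 in KO. Segments with exactly 1 count numbered 15 and 16 in fl/fl and 0 and 1 in KO. At the smallest V total, 814 counts, the number of segments with a count expected from the hypergeometric formula was 70.0 and 70.0 in fl/fl and 53.2 and 56.5 in KO. Counting instead segments with at least 3 counts gave 40 and 44 in fl/fl and 55 and 57 in KO, which reverses the order and is not adjusted for depth. The effective number of segments by Shannon entropy, the number of equally used segments that would give the same entropy, was 30.4 and 33.7 in fl/fl and 24.9 and 23.6 in KO. At 814 counts it was 30.4, 33.7, 24.2 and 22.9 in the same order. The inverse Simpson index, which weights common segments more, was 18.9 and 22.8 in fl/fl and 15.9 and 13.4 in KO. By each of these indices the fl/fl and KO libraries did not overlap, and none of them was tested.

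**Figure D3:**
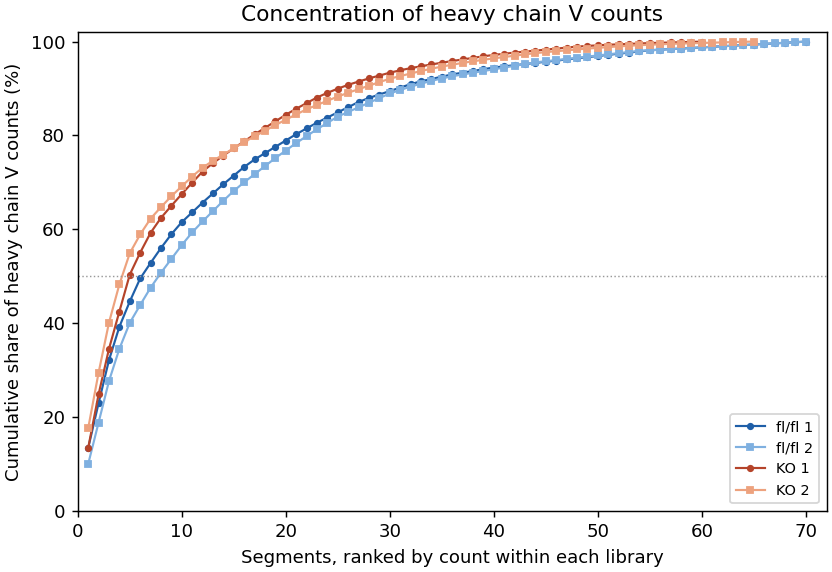
Cumulative share of heavy chain V counts (%) against the rank of the segment within each library. The KO curves pass 50% at 5 segments and the fl/fl curves at 7 and 8.

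The 5 most counted segments took 44.6% and 40.0% of V counts in fl/fl and 50.3% and 54.9% in KO, and the 10 most counted took 61.5% and 56.6% against 67.5% and 69.2%. The most counted segment was Ighv5-2 in fl/fl, at 13.4% and 9.95%, and Ighv8-8 in KO, at 13.4% and 17.6%. No segment reached 20% of V counts in any library. Across all 4 libraries, 65 segments had a count in both genotypes, 22 in fl/fl alone and 7 in KO alone. Those of fl/fl alone had at most 24 counts and those of KO alone at most 49. This split was not made over all genes, of which more had a count in fl/fl too (18947 and 19016 against 16892 and 16479).

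Segment shares were closer between the libraries of 1 genotype than between genotypes. The Bray-Curtis distance between usage profiles, which is 0 for equal profiles and 1 for profiles with no segment in common, was 0.153 for the fl/fl pair and 0.130 for the KO pair. Between genotypes it was 0.646 to 0.673. Over all genes the distances were 0.0328 and 0.0517 within genotypes and 0.103 to 0.114 between them. Of the 10 most counted segments, the fl/fl libraries shared 8 and the KO libraries 9, and each pair of libraries across genotypes shared 2. The lists of segments with any count were less alike: the fl/fl pair had 53 in common of 87 detected in either library, the KO pair 53 of 72, and the pairs across genotypes from 45 of 85 to 54 of 81.

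**Figure D4:**
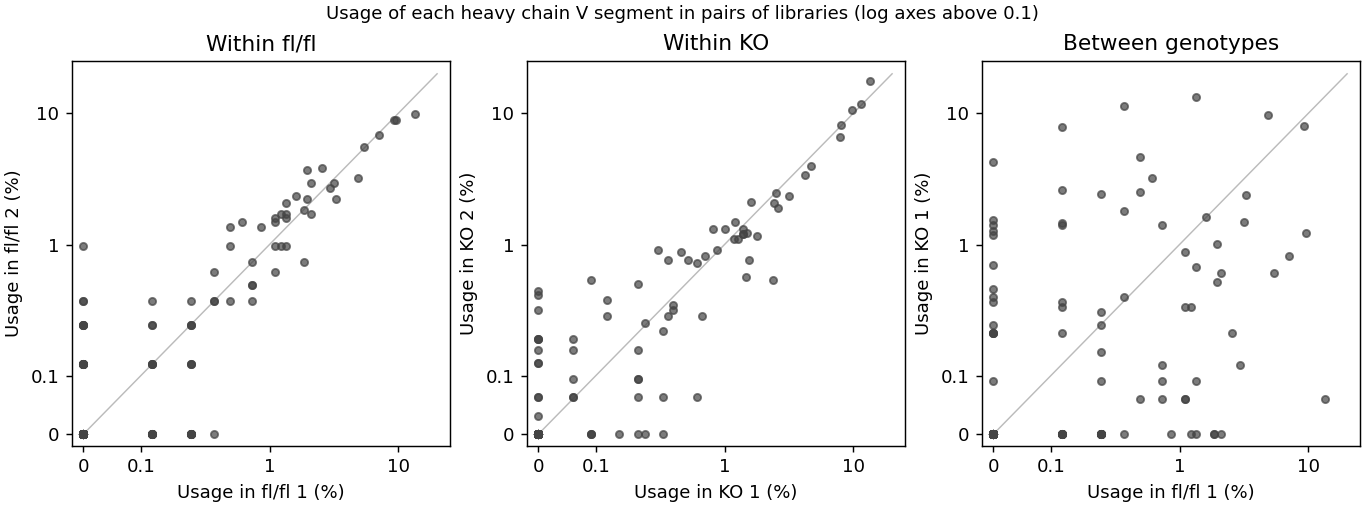
Usage of each segment (% of heavy chain V counts, logarithmic above 0.1) in 1 library against another, within fl/fl, within KO and between fl/fl 1 and KO 1. Points follow the diagonal within a genotype and scatter away from it between genotypes.

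Relative to counting noise, chi-square divided by its degrees of freedom, over segments, was 1.16 for the fl/fl pair, 4.62 for the KO pair and 39.0 to 45.2 across genotypes. Over all genes it was 2.74 for fl/fl, 6.66 for KO and 18.5 to 20.6 across genotypes. At 816 and 814 V counts, the fl/fl libraries thus differed in V usage by little more than sampling noise. For a given difference, this measure grows with the counts per gene. Its values for V segments and all genes, or for fl/fl and KO, are therefore not comparable in size. Each library was counted as 1 replicate. In KO, Ighv9-3 with 78 and 17 counts, Ighv1-42 with 20 and 2 and Ighv3-8 with 0 and 14 were among the segments that differed between libraries, chosen after their values were seen. As background, the V segments of expanded B cell clones differ between individual animals, also of 1 genotype. Whether the libraries of a genotype share an animal or a pool of animals is not stated in the labels and was not tested, so the V usage of a genotype and that of the animals sampled cannot be told apart here.

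Along the locus, the segments nearest the D segments held less of the usage in KO. The 61 segments at that end held 41.9% and 37.5% of V counts in fl/fl and 14.6% and 12.8% in KO. The next 61 held 26.3% and 27.5% against 35.0% and 31.3%, and the 61 farthest from the D segments held 31.7% and 35.0% against 50.4% and 55.9%. In the exact 95% intervals the fl/fl and KO libraries were apart for the nearest and for the farthest segments, and between the middle ones they overlapped for fl/fl 2 and KO 2. Of the farthest stretch, Ighv8-8, Ighv1-75 and Ighv1-80 together held 6.62% and 5.65% of V counts in fl/fl and 34.5% and 40.1% in KO. Its other segments held 25.1% and 29.4% against 15.9% and 15.8%, so without these 3 its share was lower in KO. Of the nearest stretch, Ighv5-2 held 13.4% and 9.95% of V counts in fl/fl and 0.0608% and 0.0630% in KO. Ighv11-2 held 9.56% and 8.85% against 1.22% and 1.48%, so these 2 segments carried much of the lower share of that stretch. In counts the nearest stretch was higher in KO, with 342 and 305 against 481 and 406. Segments that rose lay in all 3 stretches, 6 nearest, 9 in the middle and 9 farthest. The 4 that fell were Ighv5-2 and Ighv2-9-1 in the nearest and Ighv6-6 and Ighv1-42 in the middle stretch. The split into stretches was made after the data were seen.

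**Figure D5:**
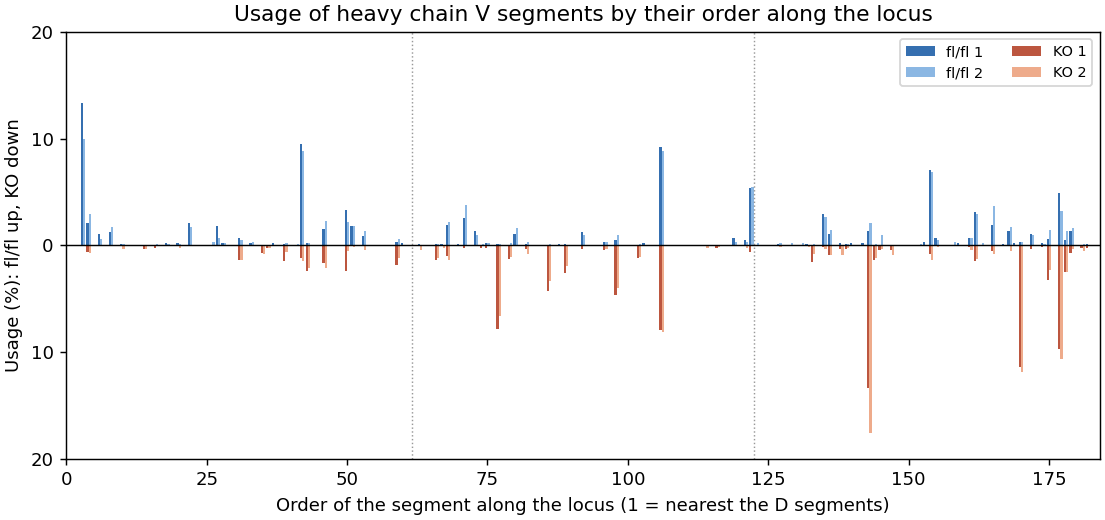
Usage of each segment (% of heavy chain V counts) against its order along the locus, with fl/fl libraries drawn upward and KO libraries downward from 0. The tall fl/fl bar at the left is Ighv5-2 at order 3, and the tall KO bars at the right are Ighv8-8 at 143, Ighv1-75 at 170 and Ighv1-80 at 177.

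Annotated pseudogenes took few counts. Of the 113 V genes 85 had a count, and of the 70 pseudogenes 9 did. Pseudogenes had 15 and 11 counts in fl/fl and 14 and 13 in KO, or 1.84% and 1.35% against 0.426% and 0.409% of V counts. The number of pseudogene counts was thus nearly the same in both genotypes, while counts of V genes were higher in KO.

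Many segments are close copies of each other, so counts of single segments are uncertain. The coding sequence of the nearest other segment was a median of 95.4% identical for V genes with a count, up to 99.1%. Of the 50-base stretches of such a V gene, a median of 78.4% occurred in no other segment, and of the 100-base stretches 100%. Ighv5-2 shares no 50-base stretch with another segment. For Ighv8-8, 75.4% of 50-base stretches were its own, for Ighv1-75 61.3%, for Ighv1-4 66.2%, for Ighv1-26 51.0% and for Ighv11-2 47.7%, the last being 98.9% identical to Ighv11-1. The read length is not given in the sources used here, and reads without a unique alignment, 23.6 to 26.4% of all reads, are not in the counts.

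Other B lineage transcripts were read beside the V segments. Over all genes tested, edgeR called 8.5% higher and 9.89% lower, and DESeq2 called 1808 of 13052 in either direction. Among heavy chain constant genes, 3 of 6 tested were higher and 2 lower in KO with edgeR, and 2 were higher and 2 lower with DESeq2. Ighm, the IgM constant region, had 4809 and 4523 counts in fl/fl and 22462 and 21476 in KO (log2 fold change 2.24, SE 0.04), or 0.170 and 0.180 V counts per Ighm count in fl/fl and 0.146 and 0.148 in KO. Ighg3 was at 0 in both fl/fl libraries and had 164 and 218 counts in KO, while Ighg2b had 155 and 147 in fl/fl and 10 and 8 in KO (-4.05, SE 0.35), the latter chosen after its values were seen. Igha had 448 and 405 against 194 and 246 (-0.95, SE 0.16). Ighd, also called higher with edgeR, had 104 and 113 counts in fl/fl and 174 and 179 in KO (0.71, SE 0.21). Ighg2c, at 83 and 80 against 76 and 53, did not pass the test. Both were chosen after their values were seen.

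Of 10 plasma cell genes tested, 6 were higher and 0 lower in KO with edgeR (0 also at an unadjusted p under 0.05), with a median log2 fold change of 1.05 and a summed level of 334 and 335 CPM in fl/fl and 723 and 704 in KO. Jchain, which joins IgM and IgA into polymers, had 440 and 399 counts in fl/fl and 2153 and 2047 in KO (2.33, SE 0.08). The oxidoreductase gene Txndc5 rose by 1.41 (SE 0.12), while Edem1, of endoplasmic reticulum quality control, was at 0.22 (SE 0.10) and did not pass the test. DESeq2 called 4 of them higher and 0 lower, and 5 and 0 without independent filtering. Among other genes of the list, chosen after their values were seen, Derl3 had 5 and 5 counts in fl/fl and 38 and 55 in KO (adjusted p = 0.0014), Prdm1 16 and 10 against 40 and 40 (0.044), Sdc1 31 and 31 against 59 and 70 (0.055), and Mzb1 0 and 0 against 0 and 1. Of 18 B cell genes tested, 2 were higher and 0 lower with edgeR, where 8.5% of all genes tested were called higher and 9.89% lower. Their median was 0.05, with summed levels of 522 and 532 against 548 and 554 CPM. Cd79b, a signalling chain of the B cell receptor chosen after its values were seen, was at -0.10 (SE 0.16) and did not pass the test. Cd79a, the other signalling chain, was higher at 0.46 (SE 0.13) and the membrane protein gene Cd37 at 0.33 (SE 0.11). Both calls ended with DESeq2 and without either fl/fl library, and that of Cd37 also without KO library 2 and without the filter on low counts. At an unadjusted p under 0.05, edgeR had 2 B cell genes lower and DESeq2 had 0.

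Precursor B cell genes gave no call with edgeR or DESeq2, 0 of 10 tested, where edgeR called 18.4% of all genes tested. With each tool 1 of the 10 was lower at an unadjusted p under 0.05. DESeq2 gave an adjusted p for 7 of the 10, and without its independent filtering it also called 0. The list had a median of -0.44 and summed levels of 134 and 148 CPM in fl/fl and 101 and 109 in KO. Rag1, of the recombinase that joins V, D and J segments, had 165 and 174 counts in fl/fl and 132 and 55 in KO (-0.86, SE 0.30, adjusted p = 0.055). It was called without KO library 1 (-1.60, adjusted p = 1.2e-08) and without the filter on low counts (-0.89, adjusted p = 0.0041). The transcription factor genes Bach2 and Sox4 were at -0.40 and -0.35 (adjusted p = 0.171 and 0.231), and Bach2 was called without KO library 2 (-0.49, adjusted p = 0.039). Rag2, chosen after its values were seen, had 7 and 8 counts in fl/fl and 0 in both KO libraries.

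Among 13 regulators known to act at the heavy chain locus, 2 were higher and 3 lower, where 8.5% and 9.89% of all genes tested were called. Those lower were Ctcf at -0.57 (SE 0.07), the cohesin gene Rad21 at -0.30 (SE 0.05) and Ezh2 at -0.32 (SE 0.09). Ctcf and Rad21 shape chromosome loops. Those higher were Irf8 at 0.50 (SE 0.11) and Spi1 at 0.40 (SE 0.10). Ezh2, Irf8 and Spi1 stood in the list of 13, and were picked to be named here after their values were seen. The list itself was chosen with earlier results of these data known. Ikzf1, at -0.03, did not pass the test and was at 0.02 with library size as the only scaling. The median over the list was -0.20. Ctcf, Rad21 and Ikzf1 are made in many cell types, while Pax5 and Ebf1 of this list also stand in the B cell list. Of 6 T cell genes tested 0 were called with edgeR or DESeq2, and 1 was lower at an unadjusted p under 0.05 with each tool. DESeq2 gave an adjusted p for only 1 of the 6, and without its independent filtering it also called 0. Cd247 was at -0.83 (adjusted p = 0.059), and was called without KO library 2, while Lck and Thy1 were at -0.34 and 0.67. The median over the T cell list was -0.09, and its summed level was 31.6 to 35.6 CPM. How far B lineage cells in the sorted fraction account for the V counts was not tested.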

How the data were processed

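RNA of Ter119+ bone marrow cells was measured in 4 libraries of poly(A) RNA, 2 per genotype. The authors deposited whole-number read counts for each gene. Per the submitters' processing notes the tools were HTSeq 0.12.4, HISAT2 2.1.0, FastQC 0.11.7, HOMER and DESeq2, and the build GRCm39. Strand setting, read length and annotation were not given in the sources. The 5 rows without a gene were left out, such as reads assigned to no feature (35.8 to 36.7% of reads).

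All genes were fitted in R 4.3.3 with edgeR 4.0.16 (filterByExpr by genotype, TMM, quasi-likelihood test, two-sided, Benjamini-Hochberg adjustment over all 13052 genes tested, called under 0.05). CPM used assigned counts times the TMM factor. The SE is the log2 fold change divided by the square root of F. The common biological coefficient of variation was 0.125. Alternatives were DESeq2 1.42.0, other scaling, no filter, a replicate block and leaving out each library. The fit was tested on simulated data. Intervals and the floor of 3 counts cover counting error only. Order, gene type and sequence came from GENCODE M21 (GRCm38), and identity from edit distances.

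Named were Med16, every segment called, the 10 with the most counts, the top segment of each family, and from each context list the 2 genes with the highest level and the 2 with the smallest adjusted p. Members and lists were chosen with earlier results of these data known.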

Additional observations from a re-analysis of the deposited data

How the results depend on the processing

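Over all genes, 2400 were called, 1158 to 3998 without 1 library and 2767 with a replicate block, which called the same 28 heavy chain V segments as the fit without it. The block added calls for Hbb-bt (-0.30, adjusted p = 8.1e-52), Rag1 (-0.94, adjusted p = 0.0016) and Cd247 (-0.83, adjusted p = 0.042). Whether libraries with the same replicate number in their titles belong together is not known. The differences between library 1 and 2 of fl/fl and of KO had a correlation of -0.0050 across 13052 genes. Counting noise alone can bring such a value near 0, so it does not settle whether the numbers mark a pairing. Of the V segments 28 were called, 21 to 35 without 1 library and 7 with DESeq2, which gave no adjusted p for 21 of the 28. Those higher were 24, 20 to 27 without 1 library and 7 with DESeq2. Those lower were 4, 1 to 12 without 1 library, 0 with DESeq2 and 1 with DESeq2 without independent filtering, added once the values were known. At an unadjusted p under 0.05 DESeq2 had 6 lower. No call changed sign under any alternative. Fits without 1 fl/fl library take their spread from the KO libraries alone, and the reverse.

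Without the most counted segment of each library, the KO minus fl/fl difference was 26.003 points for V1, -2.52 for V5, -6.02 for V8 and -8.83 for V11. The segment left out was Ighv5-2 in fl/fl and Ighv8-8 in KO, so these values do not compare the same set of segments. Counts divided by exon length, a choice made after the data were seen, gave -6.30 for V11. The difference in segments detected was -7.5, 14 at a minimum of 3 counts and -15.1 at the smallest total, where the depth is equal. The share of assigned counts, the Shannon number and the inverse Simpson index kept their direction in every alternative run. Among the 52 named genes with a fit, 2 changed sign: Hbb-bt, at 0.035 without KO library 1 and from -0.69 to 0.035 over the fits without 1 library, and Ikzf1, at 0.022 with library size as the only scaling. The 814 to 816 V counts per fl/fl library limit what can be said of single segments there.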
